A study of Homo sapiens with 19 samples.

Results

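Basal keratin cells were defined in human liver organoids as cells with at least 1 UMI (a tag that marks a single captured RNA molecule) of KRT5 and at least 1 UMI of KRT15 or KRT13. Cells with fewer than 500 genes, or with more than 20% of their UMIs from mitochondrial genes, had been set aside beforehand. The rule found 5812 basal keratin cells among the 34289 kept cells of the 5 libraries from organoids in ultra-low attachment (ULA) plates; the whole series held 120240 kept cells in 19 libraries. Day 34 contributed 5800 of them and day 21 contributed 12. The rule reads the counts of 3 keratin genes, and it was proposed with the day 34 excess and the unequal replicates already known. The shares of these cells and all differences between them and other cells are therefore descriptions, and no test was made on them.

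The organoids were grown from the wild-type human pluripotent stem cell line W01, distributed by WiCell, and single cells were sequenced in droplets with the 3′ v3 kit of 10x Genomics, per the labels. Untreated ULA organoids were collected at day 21 (n = 3 libraries) and day 34 (n = 2 libraries). A further 14 libraries from day 25 organoids on an orbital shaker (2 per group) serve here only for a comparison of the same rule: untreated organoids, organoids given TGFB1 at 10 ng/ml or PA at 500 µM for 5 days after 20 days of culture, organoids given OA at 500 µM, and a control group for each of the 3 agents. PA and OA are written here as abbreviated in the labels. Every library came from this 1 line, and the labels do not say whether replicates were separate differentiations, so the spread between them may be technical. Organoids of day 34 and of the shaker received an additional wash and trypsin incubation that the day 21 organoids did not, per the labels; its part in the day difference was not tested.

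KRT5 is the type II keratin of the basal layer of stratified squamous epithelia such as epidermis, oesophagus and cervix, where it pairs with the type I keratins KRT14 and KRT15. Basal cells depend on the transcription factor TP63 and are anchored to the basement membrane by hemidesmosomes and to each other by desmosomes; as they leave the basal layer they switch to other keratins, among them KRT13 in non-cornifying mucosa and KRT1 and KRT10 in epidermis. Hepatocytes and bile duct cells normally make the simple keratins KRT8 and KRT18, with KRT7 and KRT19 in ducts, and squamous cells are not a regular component of liver.

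The cells were concentrated in replicate 2 of day 34. At day 21 the rule took 7 of 5902 kept cells in replicate 1 (0.119%, 95% exact Clopper-Pearson interval 0.0477% to 0.244%), 4 of 5335 in replicate 2 (0.0750%, 0.0204% to 0.192%) and 1 of 6299 in replicate 3 (0.0159%, 0.000402% to 0.0884%). At day 34 it took 494 of 4326 cells in replicate 1 (11.4%, 10.5% to 12.4%) and 5306 of 12427 in replicate 2 (42.7%, 41.8% to 43.6%). Both day 34 libraries lay above all 3 day 21 libraries, and replicate 2 held 91.5% of the day 34 basal keratin cells. These intervals cover counting error only, and the 2 day 34 values differ far more than their intervals do. Summed depth was of one order in the ULA libraries, 73799160 to 92522222 UMIs, but day 34 replicate 1 spread it over fewer cells: its basal keratin cells had a median of 17904.5 UMIs and those of replicate 2 had 6978. After every cell was thinned to 5000 UMIs, with shallower cells left out, the shares were 5.05% (212 of 4194 cells) and 41.5% (3216 of 7745 cells).

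**Figure D1:**
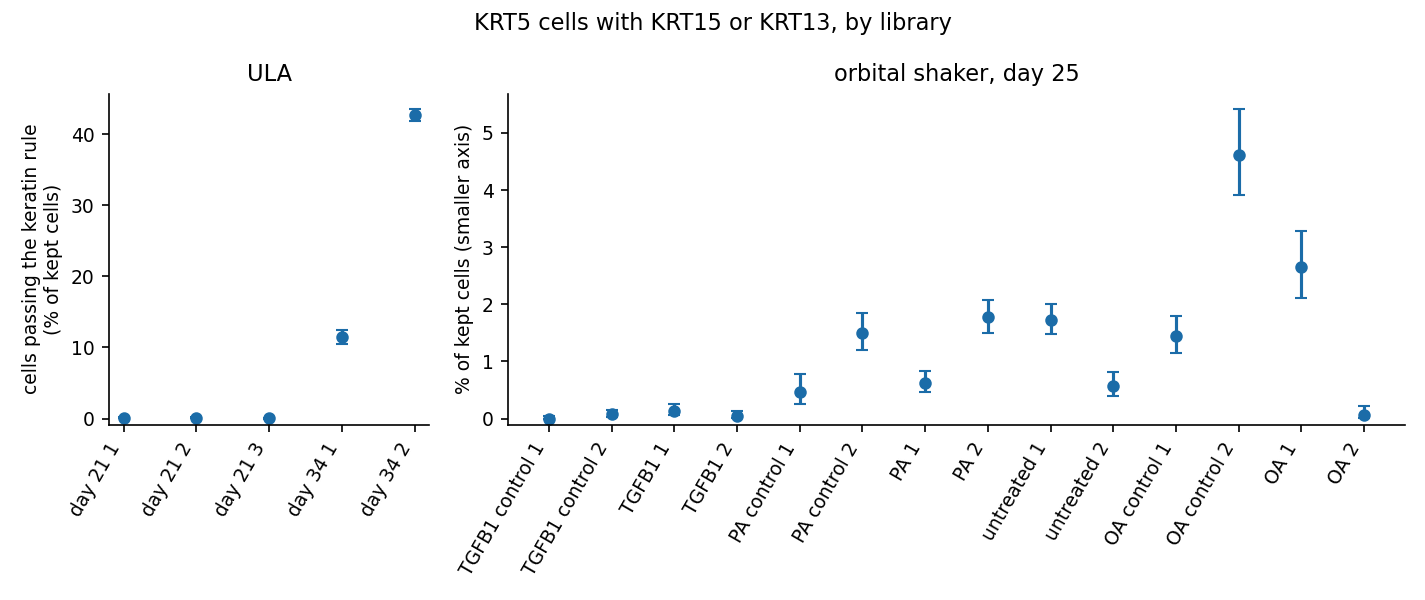
Share of kept cells that pass the keratin rule in each library, as a percent with 95% exact intervals; the left panel shows the ULA libraries and the right panel, on a smaller axis, the day 25 shaker libraries. Day 34 replicate 2 stands at 42.7% and replicate 1 at 11.4%, while the day 21 libraries lie at or below 0.119%.

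Free RNA in droplets can place a keratin UMI in a cell that does not make it, so the same count was read in cells that should lack KRT5. Mesenchymal-gene cells were taken as cells outside the rule with at least 3 UMIs each of COL1A1, COL1A2 and COL3A1 and none of the epithelial gene EPCAM. A KRT5 UMI was present in 7.88% of these 1231 cells in replicate 1 (median 17668 UMIs) and in 19.3% of 622 in replicate 2 (median 7007 UMIs), against 34.5% and 61.4% of all kept cells. Their mean was 0.185 and 0.341 KRT5 UMIs per cell, where basal keratin cells held 19.4 and 11.6. These cells exclude any that passed the rule, so the values are lower limits of the background. With the rule's cells left in, 1241 and 684 cells met the same collagen and EPCAM criteria, of which 8.62% and 26.6% had a KRT5 UMI, at a mean of 0.232 and 0.952 UMIs; 10 (0.806%) and 62 (9.06%) of them passed the rule. Both readings were higher in the library with more basal keratin cells.

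Cells on both sides of the rule's edge carried KRT5. In replicate 1, 1493 cells had a KRT5 UMI and 494 of them passed; in replicate 2 the numbers were 7635 and 5306. Just inside the rule, the cells with exactly 1 KRT5 UMI (40 and 510 cells) had 32.4 and 24.8 CPM of TP63, where CPM is a gene's UMIs per 1000000 summed UMIs of the named cells. Just outside it, KRT5 cells without KRT15 or KRT13 (999 and 2329 cells) had 49.5 and 26.9 CPM of TP63, whereas cells with none of the 3 keratins (2596 and 3674 cells) had 6.67 and 3.99. In the KRT5 cells left out, S100A2 was at 45.8 and 151 CPM, DSG3 at 12.0 and 12.4 and SPRR1B at 11.8 and 46.2. For these 4 genes the KRT5 cells left out lay between the basal keratin cells and the keratin-free cells in both libraries. COL17A1 did not follow this order in replicate 1, at 91.4 CPM in the KRT5 cells left out and 89.0 in basal keratin cells. Every comparison with all other cells includes the KRT5 cells left out. Of all KRT5 UMIs, the basal keratin cells held 51.6% in replicate 1 and 86.1% in replicate 2.

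The basal label was read against 10 basal markers that the rule did not use: KRT14, KRT17, TP63, COL17A1, ITGB4, DSG3, DSC3, S100A2, TRIM29 and SFN. All 10 were higher in basal keratin cells than in the other kept cells of the same library in both libraries, as were 28.9% of the 18279 genes with at least 20 UMIs in each library. A 2-fold difference in both libraries was reached by 8 of the 10, beside 0.821% of all genes that were 2-fold higher (150 genes) and 2.35% that were 2-fold lower (429 genes). All fold values here are differences of log2 (CPM + 1), which understate the change of low genes. TP63 stood at 63.3 and 41.1 CPM in basal keratin cells and at 19.8 and 12.7 CPM in other cells. KRT17, a type I keratin of basal and activated epithelium, stood at 2701 and 3600 CPM against 975.5 and 1376, but VTCN1 GABRP cells, an epithelial population described further on, held 2667 CPM in replicate 1 and 1769 in replicate 2. Against VTCN1 GABRP cells, ITGB4 was at 123 and 62.7 CPM against 113 and 15.7. TRIM29 was at 43.6 and 33.1 against 35.1 and 15.2, and SFN at 339 and 586 against 245 and 267. These markers were thus close in replicate 1. TP63, DSG3 and S100A2 were at least 2-fold above VTCN1 GABRP cells in both libraries. KRT17, KRT16 and KRT14 are close in sequence, as are KRT6A, KRT6B and KRT6C, so the assignment of reads among them is uncertain.

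KRT14 departs from the label. It reached only 5.53 and 1.83 CPM in the basal keratin cells (65 and 83 UMIs in all), against 2.01 and 1.55 CPM in other cells, although it is the usual partner of KRT5 in the basal layer. A KRT14 UMI was found in 2.63% and 1.13% of basal keratin cells. After thinning to 5000 UMIs the shares were 0.813% of 492 cells and 0.854% of 3866, and in mesenchymal-gene cells 0% of 1225 and 0.198% of 505. KRT15, a type I partner that belongs to the rule, was at 59.5 and 138 CPM. Simple keratins were present in the same cells: KRT19 at 3936 and 3273 CPM, KRT8 at 1751 and 1744, KRT18 at 1417 and 1457 and KRT7 at 268 and 180. Suprabasal genes were present too. All 8 suprabasal markers outside the rule (KRT1, KRT10, KRT4, IVL, SPRR1B, SPRR3, SBSN and KRTDAP) were above other cells in both libraries, of which 3 passed 2-fold and 1 passed 4-fold. In the wider list of 31 measured suprabasal and cornified envelope genes, KRT13 of the rule included, 20 were above 0 in both libraries. In the same list 4 were below and 6 passed 2-fold higher. Over all tested genes the shares were 28.9%, 41.8% and 0.821%, but only 20 of the 31 had at least 20 UMIs in each library. A KRT13 UMI was seen in 45.3% and 81.8% of basal keratin cells. These are sums over cells, and KRT13 belongs to the rule: after thinning to 5000 UMIs, any of KRT1, IVL, SPRR1B or SPRR3 was seen in 15.04% of 492 and 28.2% of 3866 basal keratin cells. KRT10 was more abundant, at 586 and 1153 CPM against 356 and 475 in other cells. It was not confined to squamous cells, at 334 and 437 CPM in mesenchymal-gene cells. Basal keratin cells with KRT15 but without KRT13 held 379 and 464 CPM of KRT10. As a population, the cells carried basal markers with KRT14 near 0, simple keratins, and suprabasal genes to unequal extents.

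A difference of at least 4-fold in the same direction in both libraries was seen for 6 genes above (0.0328%) and 4 below (0.0219%). KRT5, KRT15 and KRT13 belong to the rule, which left S100A2, SPRR1B and DSG3. These counts depended on each library: replicate 1 alone gave 11 higher and 132 lower, and replicate 2 alone gave 14 higher and 9 lower. S100A2, a calcium-binding protein of basal keratinocytes (GRCh38 chromosome 1, 153561108 to 153567890, minus strand), was at 118 and 396 CPM in basal keratin cells and at 17.4 and 66.2 CPM in other cells, a log2 difference of 2.70 and 2.56. SPRR1B, a small proline-rich precursor of the cornified envelope (chromosome 1, 153031203 to 153032900, plus strand), was at 90.4 and 138 CPM against 8.43 and 30.5, a log2 difference of 3.28 and 2.14. DSG3, the desmosomal cadherin of basal and lower suprabasal layers (chromosome 18, 31447741 to 31478702, plus strand), was at 25.1 and 35.1 CPM against 4.95 and 6.13, a log2 difference of 2.13 and 2.34. The level of each of the 3 genes in basal keratin cells of either library lay above its level in the other cells of both libraries. S100A2 and SPRR1B were unevenly spread over the cells. The 10 richest cells held 40.9% of the S100A2 UMIs in replicate 1 and 5.80% in replicate 2. For SPRR1B, a UMI was seen in 16.0% and 21.6% of basal keratin cells, and 10 cells held 61.8% and 7.35% of its UMIs. These are 10 of 494 and 10 of 5306 cells, so the percentages cannot be compared between the libraries.

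The rule's own genes lie at chromosome 12, 52514575 to 52520530 (KRT5), and in the type I keratin cluster of chromosome 17 at 41513745 to 41522529 (KRT15) and 41500981 to 41505705 (KRT13), all on the minus strand in GENCODE v44. The same cluster holds KRT14 at 41582279 to 41586895 and KRT17 at 41619442 to 41624842. KRT14, which was near 0, thus lies between KRT15 and KRT17, which were not.

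The 250 bases upstream of the RefSeq start (GRCh38.p14) of the 3 genes past 4-fold are shown because these genes passed 4-fold in both libraries without being part of the rule. Each window was searched on both strands for the AP-1 motif TGANTCA and the AP-2 motif GCCNNNGGC, which do not overlap in any of the 3, and capitals mark AP-1 matches. The windows are chr1:153565845-153566094 (minus strand) for S100A2, chr1:153030953-153031202 (plus strand) for SPRR1B and chr18:31447491-31447740 (plus strand) for DSG3.
S100A2: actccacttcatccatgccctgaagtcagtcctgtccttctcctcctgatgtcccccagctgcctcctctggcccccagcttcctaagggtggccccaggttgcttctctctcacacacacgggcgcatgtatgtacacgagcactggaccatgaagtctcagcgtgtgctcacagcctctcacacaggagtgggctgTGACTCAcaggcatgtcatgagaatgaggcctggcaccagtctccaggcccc
SPRR1B: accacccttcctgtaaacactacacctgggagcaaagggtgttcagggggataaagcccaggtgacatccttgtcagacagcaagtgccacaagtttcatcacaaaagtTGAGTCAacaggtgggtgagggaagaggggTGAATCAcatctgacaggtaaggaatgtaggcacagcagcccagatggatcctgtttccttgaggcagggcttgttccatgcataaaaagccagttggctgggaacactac
DSG3: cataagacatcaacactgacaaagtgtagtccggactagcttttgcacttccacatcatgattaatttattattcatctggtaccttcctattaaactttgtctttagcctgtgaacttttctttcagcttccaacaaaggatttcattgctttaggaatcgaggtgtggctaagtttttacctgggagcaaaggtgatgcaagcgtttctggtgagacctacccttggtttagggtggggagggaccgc

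The RefSeq start of S100A2 lies inside the longer GENCODE span given above, so its window is upstream of the RefSeq transcript only. S100A2 had 1 AP-1 match, which begins 52 bases before the start. SPRR1B had 2, which begin 141 and 111 bases before it, and DSG3 had none in this window. Of 35116 such windows in the RefSeq table, 6.57% held an AP-1 match and 19.8% an AP-2 match; none of the 3 windows shown held the latter. A match is a description of letters, and binding was not measured.

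The 4 genes at least 4-fold lower were CHGA, PMP22, PTX3 and NNMT. CHGA, the granule protein of neuroendocrine cells (chromosome 14, 92923150 to 92935285), had 3 and 101 UMIs in basal keratin cells, or 0.255 and 2.23 CPM, against 11.3 and 26.2 CPM in other cells. The other 3 were all higher in mesenchymal-gene cells: PMP22, a membrane protein best known from myelin, was at 9.95 and 9.22 CPM in basal keratin cells and at 127 and 137 CPM in mesenchymal-gene cells. PTX3, a secreted pentraxin, was at 13.5 and 7.70 against 78.4 and 62.5 CPM in the same comparison. NNMT, nicotinamide N-methyltransferase, was at 11.1 and 21.5 against 121 and 312 CPM. Low levels were not particular to basal keratin cells. In VTCN1 GABRP cells PMP22 was at 8.03 and 2.03 CPM, PTX3 at 6.65 and 3.05 and NNMT at 13.8 and 18.5. CHGA was at 0.285 and 1.24 CPM in mesenchymal-gene cells and at 0.0923 and 19.3 in VTCN1 GABRP cells.

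**Figure D2:**
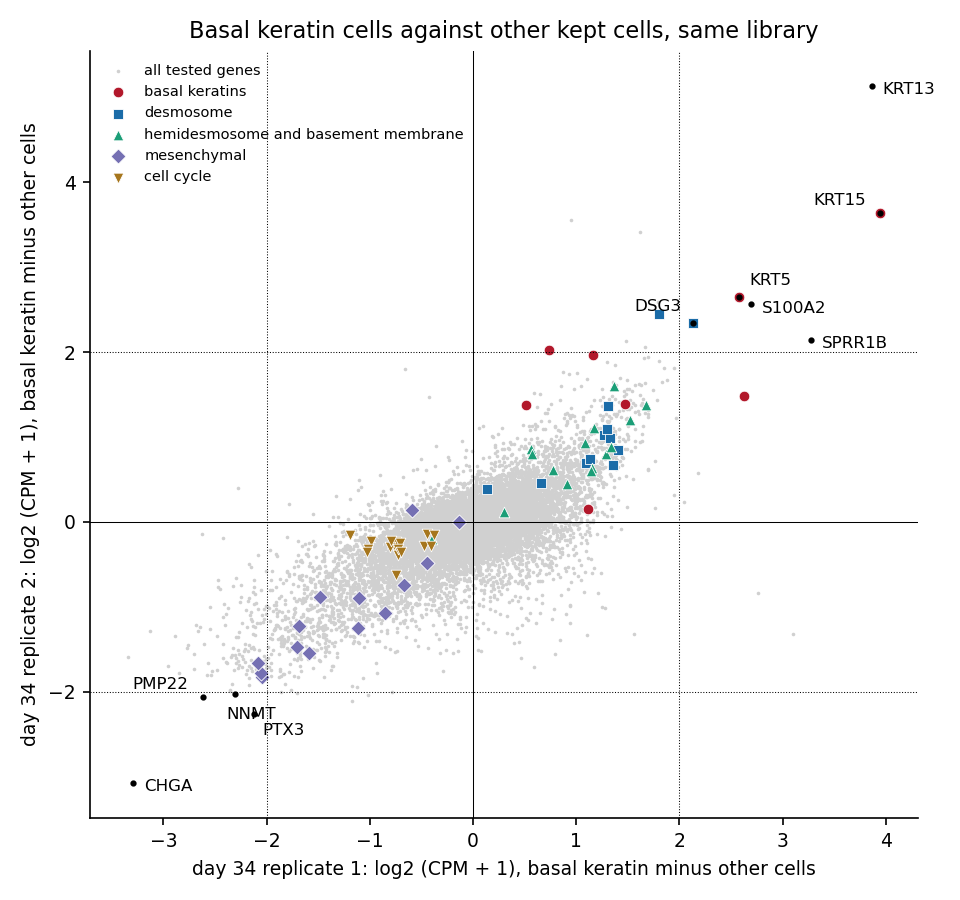
Each point is a gene; the axes give the log2 (CPM + 1) difference between basal keratin cells and the other kept cells in day 34 replicate 1 (x) and replicate 2 (y), dotted lines mark 4-fold, and colours mark listed gene groups. S100A2, SPRR1B and DSG3 lie beyond 4-fold beside the rule's 3 keratins, desmosome genes lie above 0 and the 17 cell cycle genes below 0 on both axes.

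Genes of cell adhesion were higher as groups. Over all tested genes, 28.9% were above 0 and 0.821% at least 2-fold higher in both libraries. All 12 listed desmosome genes were above 0 in both libraries, with a median log2 difference of 1.31 and 0.92, where the median over all tested genes was -0.04 and -0.05; 5 of the 12 passed 2-fold in both (DSC2, DSG3, PKP1, DSP and PERP). DSP, the plakin that ties desmosomes to keratin filaments, was at 1645 and 1463 CPM against 662 and 569 in other cells. PKP1, a plakophilin of squamous desmosomes, was low but unequal, at 7.74 and 14.1 CPM against 1.498 and 1.77. Of 15 hemidesmosome and basement membrane genes, 14 were above 0 in both libraries with medians of 1.15 and 0.80, and COL17A1, ITGA6, ITGB4 and FERMT1 passed 2-fold. ITGA6 and ITGB4, the subunits of the hemidesmosomal integrin, were at 249 and 266 CPM against 77.2 and 102, and at 123 and 62.7 CPM against 53.9 and 28.6. COL17A1, the transmembrane collagen of hemidesmosomes, was at 89.0 and 47.6 CPM against 33.9 and 15.1. The member of this list that was below 0 in both libraries was ITGB1, at 267 and 298 CPM against 353 and 345.

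Of 20 secreted and surface genes of basal cells, 17 were above 0 in both libraries and 9 passed 2-fold, beside 28.9% and 0.821% of all tested genes. Only 18 of the 20 had at least 20 UMIs in each library. The 9 were S100A2, SFN, LGALS7B, GJB2, GJB6, CLCA2, AQP3, CXCL14 and IGFBP6. AQP3, the water and glycerol channel of basal keratinocytes, was at 137 and 154 CPM against 38.8 and 24.8. SFN, the 14-3-3 protein stratifin, was at 339 and 586 CPM against 106 and 188. CXCL14, a chemokine made by many squamous epithelia, was at 1153 and 3912 CPM against 411 and 1692, but it was not confined to these cells: after thinning, a CXCL14 UMI was found in 59.8% and 84.6% of basal keratin cells and in 37.7% and 63.4% of mesenchymal-gene cells. LGALS7B and LGALS7 are near-identical copies, so their reads cannot be told apart.

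Among 24 squamous transcription factors, 17 were above 0 in both libraries and 3 below, beside 28.9% and 41.8% of all tested genes. Only 22 of the 24 had at least 20 UMIs in each library. Of all tested genes, 0.821% passed 2-fold above and 2.35% below. Those past 2-fold above included TP63, GRHL1, ZNF750, GATA3 and TRIM29, and SOX2 and PITX1 passed 2-fold below. GATA3, which acts in epidermis and urothelium, was at 248 and 143 CPM against 95.1 and 69.6, and TFAP2A, an early ectodermal factor, was at 209 and 110 CPM against 90.6 and 60.8. SOX2, a factor of foregut and oesophageal basal cells, was at 0.765 and 3.24 CPM against 3.00 and 8.35, and PITX1 was at 1.02 and 2.32 CPM against 9.35 and 12.1. PAX9, a factor of foregut and oral epithelium, had 1 and 12 UMIs in the basal keratin cells, and NKX2-1, which marks lung and thyroid, had 1 and 27.

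Lists for particular squamous tissues are given beside all tested genes, of which 28.9% were above 0 and 41.8% below 0 in both libraries. Tested genes had at least 20 UMIs in each library, whereas the list counts include genes below that limit. It was met by 8 of 11 oesophagus-like and 6 of 11 measured epidermis-like genes. For the airway-like, urothelium-like and thymic-like lists the numbers were 5 of 9, 6 of 8 and 2 of 9. Of 11 oesophagus-like genes, 4 were above 0 in both libraries, among them the rule's KRT13, and 2 below, and CRNN and TMPRSS11D had 0 UMIs in the basal keratin cells of both libraries. Of 11 measured epidermis-like genes, 8 were above 0 in both libraries, with 0 UMIs of FLG and KRT77, and KRT1 was the single one past 2-fold. KRT1 was at 2.64 and 21.5 CPM against 0.182 and 1.11. Of 9 airway-like genes, 2 were above and 5 below; of 8 urothelium-like genes, 1 was above in both. Of 9 thymic-like genes, FOXN1, a factor of thymic epithelium and of hair and skin keratinocytes, was 2-fold higher at 18.5 and 7.21 CPM against 5.19 and 2.18, while PSMB11 had 0 UMIs and PAX9 was near 0. PAX6 and KRT12, markers of the ocular surface, had 0 and 1 UMI each in the 2 libraries. The lists share genes such as TP63, KRT13, GATA3 and PAX9, and no regional identity was assigned.

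**Figure D3:**
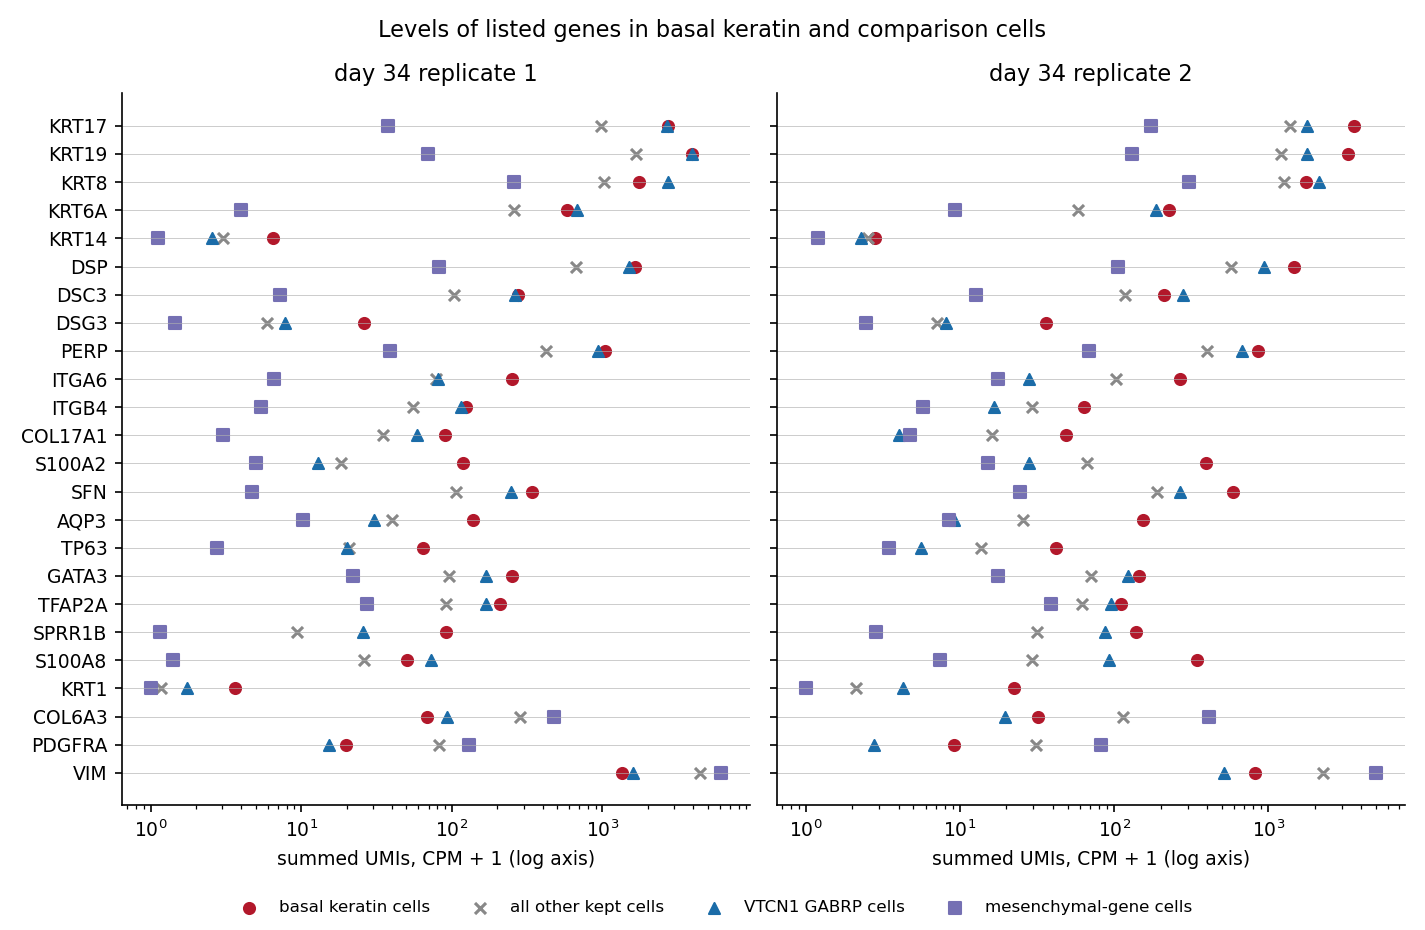
Summed level of listed genes, as CPM + 1 on a log axis, in basal keratin cells and 3 sets of comparison cells of each day 34 library. S100A2, DSG3, AQP3 and TP63 are highest in basal keratin cells in both panels, KRT14 lies near the left edge in all cells, and COL6A3, PDGFRA and VIM are highest in mesenchymal-gene cells.

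Against the 2596 and 3674 kept cells with no UMI of the 3 keratins, more genes differed: 72 of 17276 genes (0.417%) were at least 4-fold higher and 76 (0.44%) at least 4-fold lower in both libraries. KRT5, KRT15 and KRT13 are in the 72 by construction, which leaves 69. Of the 10 basal markers outside the rule, 8 passed 4-fold here. The genes named next were picked by size after their values were seen. FABP7, a brain-type fatty acid binding protein, was at 434 and 1056 CPM in basal keratin cells against 44.3 and 73.9 in keratin-free cells. MIR205HG, the host transcript of an epithelial microRNA, was at 731 and 857 CPM against 80.5 and 117. POU3F1, a POU-domain factor of keratinocytes and nerve, was at 22.3 and 15.2 CPM against 2.44 and 1.47. FAT2, an atypical cadherin of squamous cells, was at 9.18 and 16.6 CPM against 0.493 and 1.33. On the low side stood mesenchymal patterning genes, among them PRRX1 at 53.6 and 47.6 CPM against 317 and 241, and HOXA10 at 14.03 and 11.4 against 69.2 and 56.2.

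A further epithelial population for comparison was the VTCN1 GABRP cells, taken as cells outside the rule with a UMI of both genes (444 and 354 cells). At least 4-fold higher in basal keratin cells in both libraries were 11 of 15006 genes (0.0733%), of which KRT5 and KRT15 belong to the rule and 9 do not; 2 (0.0133%) were at least 4-fold lower. SPRR1B was not among them, at 24.7 and 86.6 CPM in VTCN1 GABRP cells and a log2 difference of 1.83 and 0.67. S100A2 was at 12.0 and 26.9 CPM in VTCN1 GABRP cells, below its level in all other cells, and AQP3 was at 29.4 and 8.13. POU3F1 and FOXN1 were also among the 9, at 4.34 and 0.508 and at 3.42 and 0.254 CPM in VTCN1 GABRP cells. The 2 genes 4-fold lower in the basal keratin cells were NPY, which encodes neuropeptide Y, and SFRP2, a secreted Wnt antagonist. Of the adhesion lists, the desmosome list had a median log2 difference of 0.07 and 0.02 between them, while the hemidesmosome list had 0.43 and 1.25. COL17A1 stood at 57.3 CPM in VTCN1 GABRP cells of replicate 1 but at 3.05 in replicate 2, and ITGA6 at 80.5 and 26.9. APOA2, an apolipoprotein of hepatocytes, also passed the threshold, but in replicate 1 a single cell held 637 of its 641 UMIs, so its value there describes 1 cell; without that cell it stood at 0.343 CPM.

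Mesenchymal RNA was present in basal keratin cells, and its part in the differences above was not tested. Over all tested genes, 41.8% were below 0 and 2.35% at least 2-fold lower in both libraries. Of 14 mesenchymal genes, 13 were below 0 in both libraries with medians of -1.30 and -1.15, and 7 passed 2-fold lower (COL6A2, COL6A3, LUM, PDGFRA, PDGFRB, FBN1 and VIM). Their summed level was still 4346 and 2300 CPM in basal keratin cells, against 9582 and 4794 in other cells, with COL3A1 at 1321 and 618 CPM. The cells with the highest Scrublet doublet scores were 7.29% and 16.7% of basal keratin cells (36 and 886), against 3.61% and 10.7% of all kept cells, and 1413 of the 2260 automatic calls in replicate 2 were basal keratin cells. Those 36 and 886 cells had summed mesenchymal levels of 8254 and 3554 CPM and desmosome levels of 2496 and 2748, whereas those that remained had 3879 and 1851 CPM and 4723 and 3842. When high-scoring cells were removed from all populations, 102 instead of 4 genes were 4-fold lower, and the count of higher genes was again 6. The summed hepatocyte list was at 99.7 and 456 CPM, against 98.0 and 1241 in other cells; without the basal keratin cell richest in APOA2 in each library it was at 4.29 and 449 CPM, so the value in replicate 1 rests on 1 cell. PECAM1 of endothelium, PTPRC of blood cells and SOX10 of neural crest had at most 2 UMIs in the basal keratin cells of either library. Other genes of the endothelial, immune and neural lists were detected, among them EMCN at 4.76 and 2.74 CPM and STMN2 at 5.19 and 2.89. The summed endothelial list was at 7.40 and 3.66 CPM, against 31.9 and 11.5 in other cells. The immune list was at 6.80 and 17.4 against 13.9 and 59.5, and the neural list at 10.5 and 7.50 against 74.1 and 17.1.

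Cycling genes were lower but present. Of all tested genes, 41.8% were below 0 in both libraries. All 17 listed cell cycle genes were below 0 in both libraries, with medians of -0.74 and -0.28, and none passed 2-fold; MKI67 was at 41.5 and 100 CPM against 83.2 and 117. After thinning to 5000 UMIs, MKI67 or TOP2A was seen in 15.2% (12.2% to 18.7%) of 492 basal keratin cells in replicate 1 and 36.3% (34.8% to 37.9%) of 3866 in replicate 2; unthinned shares were 22.3% and 37.3%. Other cells gave 20.2% and 41.9% after thinning and 26.6% and 36.6% before it. In replicate 2 the order of the 2 populations differed between these readings, which cover different sets of cells. The gap between the 2 libraries was thus larger than the gap between populations within either library. Thinning left out 2 and 1440 basal keratin cells and 130 and 3242 other cells.

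Signalling genes are given beside the 0.821% of all genes that were 2-fold higher and the 2.35% that were 2-fold lower in both libraries. By sign alone, 28.9% of all tested genes were above 0 and 41.8% below 0 in both. Only 15 of the 17 Notch genes given next had at least 20 UMIs in each library. Of 17 Notch pathway genes, 9 were above 0 and 5 below in both libraries, and none passed 2-fold in either direction; JAG2, a ligand, was at 43.9 and 30.6 CPM against 14.9 and 14.98. In the EGF family, the ligand AREG passed 2-fold above, at 364 and 240 CPM against 165 and 114. Of 22 Wnt, BMP and FGF genes, WNT3 passed 2-fold above, and BMP4, FGFR1 and FGF2 passed it below. WNT3 was at 84.8 and 62.8 CPM against 33.2 and 30.7, and BMP4 was at 20.8 and 13.6 CPM against 68.6 and 46.2.

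The basal keratin cells were split by the second keratin. A UMI of KRT15 without KRT13 was found in 270 and 966 cells, of KRT13 without KRT15 in 134 and 2587, and of both in 90 and 1753, so replicate 1 was richer in KRT15-only and replicate 2 in KRT13-only cells. Of 13067 genes with enough UMIs, 44 (0.337%) were at least 2-fold higher and 10 (0.0765%) at least 2-fold lower in KRT13-only cells in both libraries; at 4-fold there were 4 (0.0306%) and 1 (0.00765%). KRT13 and KRT15, which define the split, are in these counts: without them 43 and 9 genes passed 2-fold, and 3 (SPRR2F, SPRR1B and KRT1) and 0 passed 4-fold. The split uses genes of the rule, and it too is a description. Of the basal keratin cells, 244 and 1191 had exactly 1 UMI of KRT15 and KRT13 together. In mesenchymal-gene cells a KRT15 UMI was seen in 0.812% and 3.38%, and a KRT13 UMI in 0.650% and 10.6%. The class of a cell can thus rest on 1 UMI, and the part of free RNA in the split was not tested. The examples that follow were chosen by size after their values were seen.

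Several genes of suprabasal differentiation were higher with KRT13, and the median of the simple keratin list was above 0. The list of suprabasal and cornified envelope genes, which holds KRT13, had medians of 0.59 and 0.49 (KRT13-only minus KRT15-only). The simple keratin list had 0.58 and 0.63, and all 18279 tested genes had -0.001 and -0.025. The basal keratin list had 0.71 and 1.19, but it holds KRT5 and KRT15, which the rule and the split use. KRT5 itself differed by 0.73 and 0.94, and KRT17, outside the rule, by 0.39 and 0.36. SPRR2F was at 153 and 610 CPM in KRT13-only cells against 19.3 and 88.3 in KRT15-only cells, and SPRR1B was at 181 and 177 CPM against 21.3 and 28.2. KRT1 was at 5.66 and 28.7 CPM against 0.511 and 1.504, and KRT10 was at 972 and 1454 against 379 and 464. IVL, which encodes the envelope precursor involucrin, was at 5.03 and 14.996 CPM against 1.19 and 1.504, and DSG1, the desmosomal cadherin of upper layers, was at 21.1 and 10.98 against 4.43 and 2.46. The desmosome list as a whole had medians of 0.42 and 0.59 towards KRT13-only cells. SPRR2 genes are near-identical copies, and the value of SPRR2F may include its relatives. At 5000 UMIs per cell, a UMI of KRT1, IVL, SPRR1B or SPRR3 was found in 26.3% of 133 and 36.6% of 1836 KRT13-only cells, and in 4.46% of 269 and 7.80% of 654 KRT15-only cells; in mesenchymal-gene cells the shares were 0.163% and 1.78%. The shares before thinning were 35.8% and 38.2%, and 10.7% and 8.59%.

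Of the 15 hemidesmosome and basement membrane genes, 11 were lower and 1 was higher in KRT13-only cells in both libraries, and none passed 2-fold in both. Of the genes named next, LGR6 passed it in both. CXCL14 was at 1407 and 7098 CPM in KRT15-only cells against 730 and 2281 in KRT13-only cells, and COL17A1 was at 100.4 and 74.9 against 56.9 and 32.0. LAMB3, a chain of laminin-332, was at 71.1 and 37.9 CPM against 35.2 and 15.4, and ITGA6 was at 310 and 399 against 176 and 186. LGR6, a Wnt-pathway receptor of skin stem cells, was at 20.6 and 9.57 CPM against 9.44 and 3.39, and PDGFA, a growth factor for mesenchymal cells, was at 585 and 254 against 315 and 121. The hemidesmosome list had medians of -0.43 and -0.63 (KRT13-only minus KRT15-only), beside -0.001 and -0.025 over the 18279 tested genes. The share of all genes below or above 0 in both libraries was not counted for this split. TP63 was lower as well, at 74.3 and 52.4 CPM in KRT15-only and 53.2 and 32.1 in KRT13-only cells. The cell cycle list had opposite signs in the 2 libraries, 0.62 in replicate 1 and -0.79 in replicate 2.

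**Figure D4:**
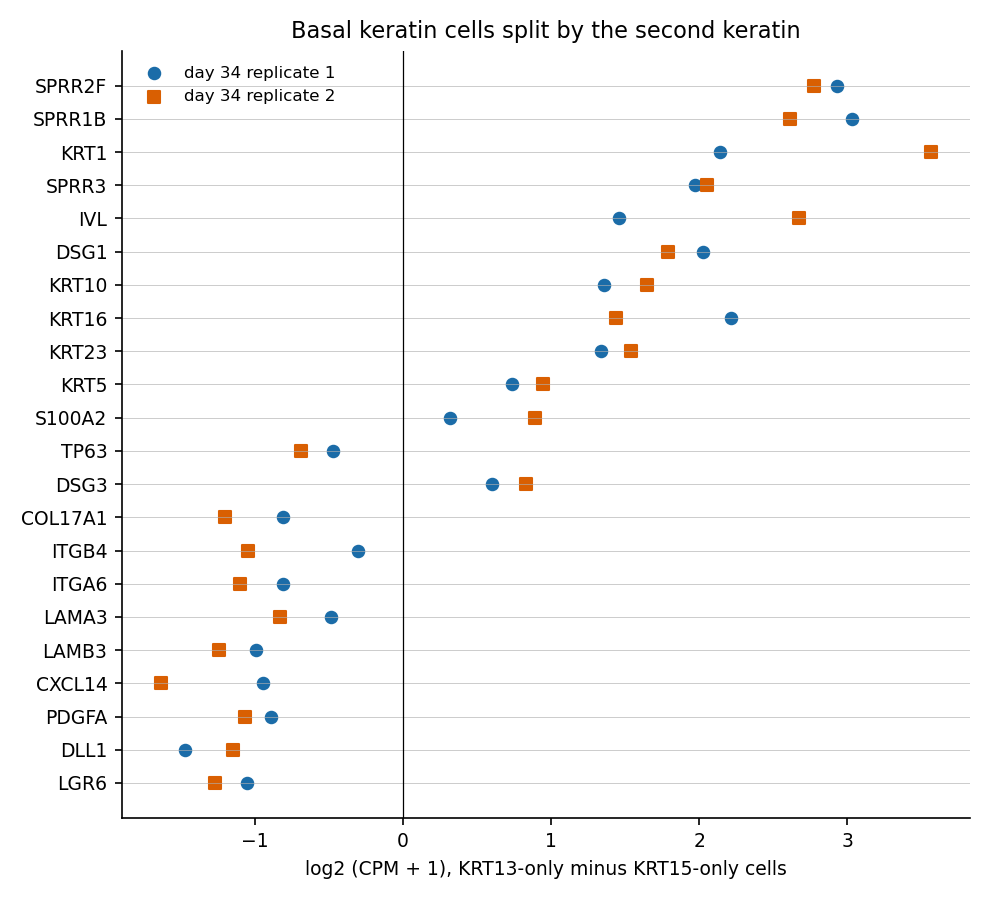
Difference in log2 (CPM + 1) between KRT13-only and KRT15-only basal keratin cells for selected genes, with circles for day 34 replicate 1 and squares for replicate 2. SPRR2F, SPRR1B, KRT1, SPRR3, IVL, DSG1, KRT10, KRT16 and KRT23 lie above 0 in both libraries, and the hemidesmosome genes, CXCL14, PDGFA, DLL1 and LGR6 lie below it.

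The 2 day 34 libraries placed these cells in different clusters. Clusters were built from all 16753 kept day 34 cells after the genes of every list used here, the rule's genes among them, had been removed; leading genes were then read from all genes. In replicate 2, 53.8% of basal keratin cells fell in cluster 1, 20.2% in cluster 4 and 11.03% in cluster 6; in replicate 1, 57.3% fell in cluster 9, 16.4% in cluster 10 and 13.97% in cluster 8. The 2 libraries were clustered together without a correction for differences between libraries. Cluster 1 held 21 kept cells of replicate 1 and 3747 of replicate 2, and cluster 9 held 1016 and 1. Cluster 8, where 65.2% of the replicate 1 cells were mesenchymal-gene cells, held 1037 and 7, and cluster 10 held 620 and 5. With 1 library each, a cluster may thus reflect the library, and the split was not particular to basal keratin cells. KRT13, S100A8, S100A2, KRT5 and FABP7 led cluster 1, cell cycle genes beside CXCL14 led cluster 4, and HBD, PDGFA, PGF, NDRG1 and SLC2A1 led cluster 9. Of the cells in clusters 1, 4 and 9, 76.2% and 66.5% (replicate 2) and 27.9% (replicate 1) were basal keratin cells. In cluster 2, led by TWIST1, SPARCL1 and TWIST2, the share was 0% of 778 cells, which allows up to 0.386%, in replicate 1 and 3.92% of 1582 in replicate 2.

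Levels varied between clusters, and not in 1 direction for all genes. Within replicate 2, S100A2 in basal keratin cells was at 592 CPM in cluster 1 and 449 in cluster 4, but at 238 in cluster 6 and 149 in cluster 7. The summed mesenchymal list was at 1607 and 1379 CPM in clusters 1 and 4 and at 5069 in cluster 6, which is led by MGP, ITGA1 and NNMT. In cluster 7, led by SPINK1, SERPINA1 and APOA2, the 254 basal keratin cells carried 4677 CPM of hepatocyte-list genes, against 93.5 in cluster 1, and a median of 13115 UMIs against 5518. Within replicate 1, TP63 was at 95.2 CPM in cluster 9 and at 19.2 in cluster 10, where VTCN1 reached 172 CPM. SPRR1B was at 94.3 CPM in cluster 9, 164.7 in cluster 10 and 12.0 in cluster 8 of replicate 1. In replicate 2 it was at 209.9 in cluster 1 and 236.6 in cluster 3, and at 37.4, 71.9 and 63.1 in clusters 4, 6 and 7, each below cluster 1. Basal keratin cells inside clusters 6, 7, 8 and 10 had median depths of 11292, 13115, 27874 and 30868 UMIs, each above that of the leading cluster of the same library (5518 in cluster 1 and 12165 in cluster 9). Those of clusters 3, 4 and 5 in replicate 2, at 11324, 7717 and 9177, were above cluster 1 as well. Whether they were doublets was not tested beyond the scores above.

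**Figure D5:**
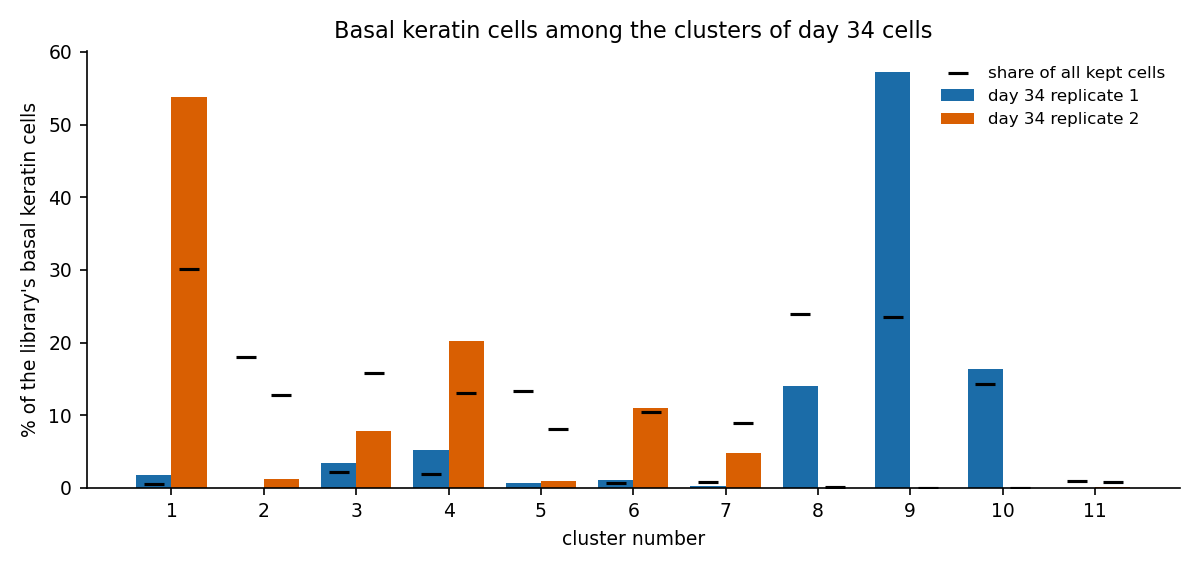
Bars give the percent of each library's basal keratin cells in each cluster and black dashes the percent of all its kept cells there. Cluster 9 holds 57.3% of those in replicate 1 and cluster 1 holds 53.8% of those in replicate 2, with almost no overlap between the libraries in clusters 8 to 10.

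Basal keratin cells themselves differed between the libraries. In replicate 2, 48 of 18279 genes (0.263%) were at least 4-fold higher and 117 (0.64%) at least 4-fold lower than in replicate 1; each side is 1 library, and the examples were chosen after their values were seen. Of the rule's genes, KRT13 was at 117 CPM in replicate 1 and 1159 in replicate 2. S100A8, a calgranulin of stressed and differentiating keratinocytes, was at 49.3 and 346 CPM in basal keratin cells and at 25.0 and 28.5 in other cells, so its difference between libraries was 2.78 and 0.18 on the log2 scale. In KRT15-only cells S100A8 was at 35.5 and 26.1 CPM and in KRT13-only cells at 60.1 and 515, so the higher level of replicate 2 was not seen in KRT15-only cells. KRT1 differed by 2.63 in basal keratin cells and by 0.84 in other cells, and stood at 0.511 and 1.504 CPM in KRT15-only and 5.66 and 28.7 CPM in KRT13-only cells. The larger KRT13 share of replicate 2 moves with both genes, and its part in these differences was not tested.

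Of the 48 genes higher in replicate 2, 42 were also at least 2-fold higher there in other cells, and of the 117 lower genes, 107 were also at least 2-fold lower. At 4-fold in other cells the numbers were 36 and 50. Over all genes, 2.36% were at least 2-fold higher and 3.35% at least 2-fold lower in replicate 2 in other cells. Both sets compare the same pair of libraries. EGLN3, a prolyl hydroxylase induced by low oxygen, was at 298 CPM in replicate 1 and 7.54 in replicate 2 in basal keratin cells, and at 191 and 10.5 in other cells. SLC2A1, the glucose transporter GLUT1, was at 1741 and 194 CPM, and at 813 and 123 in other cells. ADM, NDRG1 and VEGFA were lower in replicate 2 in basal keratin cells, in other cells and in mesenchymal-gene cells. In the opposite direction, the hepatocyte genes APOA1, TTR and SERPINA1 were higher in replicate 2, with TTR at 0.255 and 28.1 CPM in basal keratin cells and at 1.27 and 79.8 in other cells. Library, hypoxia-gene level and the share of basal keratin cells cannot be told apart with 1 library on each side.

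The 12 basal keratin cells of day 21 were too few for a profile. They held 1 to 10 UMIs of KRT5 each; 11 had a KRT15 UMI, 3 had a KRT13 UMI and 5 had a TP63 UMI. In the shaker organoids of day 25 the same rule took 815 cells, with shares from 0% to 4.62%. Profiles were read in the 6 shaker libraries with at least 50 such cells. In all 6, DSG3 (22.6 to 121 CPM), SPRR1B (208 to 476 CPM), KRT17 (671 to 4289 CPM) and KRT6A (690 to 2091 CPM) were at least 4-fold higher in these cells than in the other cells of the library; at day 34 DSG3 and SPRR1B passed 4-fold in both libraries and KRT17 and KRT6A in neither. S100A2 was at 19.1 to 269 CPM and passed 4-fold in 2 of the 6. Levels of other genes differed from day 34: TP63 was at 1.74 to 11.5 CPM, although it was above the other cells in 6 of 6 libraries and past 4-fold in 5, and COL17A1 at 15.7 to 36.3 CPM, both below the lower of the day 34 values in 6 of 6 libraries, and S100A8 was at 449 to 6982 CPM, above the lower day 34 value in all 6. KRT14 was at 4.49 to 19.4 CPM, above the other cells in 6 of 6 libraries and past 4-fold in 5, whereas at day 34 it was 1.12 and 0.15 above other cells on the log2 scale in replicates 1 and 2. Shaker and ULA matrices list different numbers of genes, and day, culture and gene table differ together, so they cannot be told apart.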

How the data were processed

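The deposited matrices hold raw UMI counts per gene and droplet barcode, made by the authors with Cell Ranger (3.0.2 among the versions in the submitters' processing notes) on GRCh38. The authors' cell types were not used. Cells under 500 genes or over 20% mitochondrial counts were dropped, and ULA libraries held 73799160 to 92522222 UMIs. Counts of each population were summed per library and compared as log2 (CPM + 1) within that library; a gene needed at least 20 UMIs in each day 34 library and the same direction in both. No test was applied, because the rule uses the same counts. The members and gene lists were chosen with earlier results of these data known. Named genes were up to 15 past 4-fold in each direction, listed genes, and others said to be chosen by size. Libraries were analysed with doublets kept; Scrublet in Scanpy 1.11.5 called 0% of cells in replicate 1 and 18.2% in replicate 2 of day 34, so removal of the highest-scoring 0.8% per 1000 barcodes is an alternative. Clusters used 2000 variable genes, 30 components, 15 neighbours and leidenalg 0.10.2 at resolution 0.5. Libraries shared 4 to 31 barcodes. Summation and counting were tested on simulated data. Positions are from GENCODE v44.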

Additional observations from a re-analysis of the deposited data

Results flagged for a closer look

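The keratin rule also took cells in shaker libraries, which none of the comparisons of day 34 ULA cells use. In 9 of the 14 shaker libraries the lower counting limit of the share lay above 0.244%, the highest upper limit of a day 21 ULA library; the limits cover counting error within a library, and culture conditions were not tested against each other. The shares were 0.468% and 1.498% in the PA control libraries, 0.626% and 1.77% in the PA libraries, 1.73% and 0.577% in the untreated libraries, 1.45% and 4.62% in the OA control libraries and 2.65% in OA replicate 1. OA replicate 2 had 0.0621% (2 of 3223 cells), far below replicate 1 of the same group (82 of 3089), and no treatment was compared. With at most 3 libraries in a group, no library could be examined as an outlier.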

How the results depend on the processing

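Leaving out replicate 1 or 2 gave 11 to 14 genes higher and 9 to 132 lower. Other settings moved the counts of 6 and 4. A pseudocount of 10 CPM gave 0 lower, and of the 3 higher genes outside the rule only S100A2 (2.226 and 2.415) still passed. SPRR1B then differed by 2.445 and 1.871 and DSG3 by 1.231 and 1.483 on the log2 scale. A 2-fold threshold gave 150 and 429, removal of high Scrublet scores 102 lower and other cells of matched UMI totals 7 lower. Keratin-free cells as comparison gave 72 and 76. At day 34 (replicates 1 and 2), requiring 2 or more UMIs gave shares of 5.04% and 29.7%, and thinning gave 5.05% and 41.5%; Scrublet removal gave 39.8% in replicate 2. At day 21, 2 or more UMIs gave 0% and 0.0187% in replicates 1 and 2, thinning 0.0366%, 0.0403% and 0% in replicates 1, 2 and 3, and the stricter filter (1000 genes, 10% mitochondrial) 0% in replicate 3. Requiring a TP63 UMI as well, an alternative chosen after seeing the data, gave 7.21% and 11.5% at day 34. At day 21 it gave 0.0187% and 0% in replicates 2 and 3. It gave 1 gene higher, which is TP63 itself, the gene this setting selects on. The comparison cells then include basal keratin cells without a TP63 UMI. On the log2 scale S100A2 then differed by 2.848 and 1.33, SPRR1B by 2.057 and 0.218 and DSG3 by 2.174 and 0.8699. None of these 3 genes passed 4-fold in replicate 2 under this setting. The share in replicate 2 of day 34 exceeded that in replicate 1 under each of these settings. Among shares of cycling cells, the order of basal keratin and other cells in replicate 2 turned (37.3% and 36.6% before thinning, 36.3% and 41.9% after). The 2 readings cover different cells, because thinning left out 1440 of 5306 basal keratin cells and 3242 of 7121 other cells. Thinning cannot add a UMI to a cell, so the higher share in other cells reflects which cells were kept. The cause of the other movements was not tested. No paired analysis was possible because the results come from no test and the labels tie no replicate number to a shared culture. Depth limits single-cell detection most in replicate 2, and 2 day 34 libraries give no estimate of the spread between cultures.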
